A study of Mus musculus with 55 samples.

Results

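The genes described here are 52 genes of the mitotic spindle, the kinetochore, chromosome segregation and cytokinesis, a list of symbols drawn up by function and with earlier results of these libraries known. Of the 52 symbols, 50 are rows of both deposited pre-mRNA tables, which hold 9911 genes for CCNA-GFP cells and 10237 genes for CTCF-AID cells. The 2 others, Ndc80 and Sgol1, were not analysed here. RNA-seq gave pre-mRNA levels for mouse embryonic stem (ES) cells of the E14Tg2a line (strain 129/Ola), which were grown in serum and LIF. CCNA-GFP cells carry a GFP reporter of cyclin A and are labelled as untreated apart from the synchronisation (19 libraries). CTCF-AID cells are 1 clone in which CTCF carries a degron, so that auxin (IAA) triggers its degradation, and were analysed without IAA (18 libraries) and with IAA (18 libraries). Mitotic cells were obtained in both lines with the CDK1 inhibitor RO-3306 (10 µM, 4 h), then nocodazole (50 ng/ml, 4 h), which depolymerises microtubules, and shake-off. They were released for 20, 30, 40, 50, 60, 90 or 120 min in CCNA-GFP and for the same times without 30 min in CTCF-AID, and asynchronous cells were taken alongside. IAA was given at 0.5 mM for the last 2 h of nocodazole and kept on during the release, and asynchronous cells, which saw no nocodazole, were exposed to it alongside for 4 h. Mitotic and asynchronous cells have 3 libraries per group and the release times have 2, except for 1 library at 50 min in CCNA-GFP.

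Entry into mitosis and the separation of the chromosomes are driven by kinases such as PLK1 and the Aurora kinases, by motors and microtubule-binding proteins of the spindle, by the kinetochore that ties chromosomes to it, and by the checkpoint that holds back the anaphase-promoting complex until every chromosome is attached. In cycling cells the transcripts of most of these genes rise in G2 and mitosis, under FOXM1 and the MuvB complex, whose subunit LIN54 binds an element named the cell cycle genes homology region (CHR), often near CCAAT boxes bound by NF-Y. In G1 the same genes are usually held low, and some of their proteins are degraded as cells leave mitosis. The question put to these libraries was how pre-mRNA of such genes behaves as ES cells pass from mitosis into early G1.

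The deposited values are TPM, an abundance corrected for transcript length, of the unspliced isoform of each gene, so they follow recent transcription rather than the pool of mature mRNA. The listed TPM summed to between 13747 and 42576 in the CCNA-GFP libraries and between 17702 and 43370 in CTCF-AID. These values hold no read counts, so the depth and the counting error of a value are unknown, and the spread between replicates is the error used throughout. Of 8 ES cell markers 7 are listed, with a summed level of 24.7 to 104 TPM in CCNA-GFP and 37.4 to 126 TPM in CTCF-AID, none of 5 primitive endoderm markers is listed, and of 6 mesoderm and neural markers 4 are listed, with a summed level of 0.759 to 7.66 TPM in CCNA-GFP and 0.964 to 15.0 TPM in CTCF-AID. Of 6 fibroblast markers, CCNA-GFP cells have 0 listed and CTCF-AID cells 2, which sum to 0.146 to 3.42 TPM. The part of such cells in the results below was not tested. Ctcf pre-mRNA averaged 7.26 ± 1.64 TPM (SD, n = 3) in asynchronous cells without IAA and 8.73 ± 1.89 TPM (SD, n = 3) with IAA. IAA acts on the CTCF protein, so this level checks nothing about the depletion.

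The promoters of 3 members are shown because they hold the elements through which G2/M genes are known to be controlled. Each line gives the 150 bases before the RefSeq transcription start (GRCm38.p6), 5′ to 3′ along the gene's own strand, which is the minus strand for these 3 genes. Capitals mark CHR elements (TTTGAA, or TTCGAA, which reads the same on both strands) and CCAAT boxes, each searched on both strands, so that TTCAAA and ATTGG are the same motifs on the other strand.
Cdc20 chr4:118437344-118437493: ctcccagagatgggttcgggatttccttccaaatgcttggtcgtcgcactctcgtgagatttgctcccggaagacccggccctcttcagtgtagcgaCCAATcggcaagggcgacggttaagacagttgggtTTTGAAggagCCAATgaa
Top2a chr11:99024190-99024339: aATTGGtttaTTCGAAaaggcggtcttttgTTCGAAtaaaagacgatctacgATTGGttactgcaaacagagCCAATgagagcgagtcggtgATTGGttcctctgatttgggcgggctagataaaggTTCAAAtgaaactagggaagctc
Mki67 chr7:135716380-135716529: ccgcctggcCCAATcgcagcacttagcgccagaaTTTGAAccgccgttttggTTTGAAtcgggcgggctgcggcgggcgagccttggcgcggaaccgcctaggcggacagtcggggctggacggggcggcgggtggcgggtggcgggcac

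In Cdc20 the TTTGAA element begins 18 bases before the start, with CCAAT boxes beginning 53 and 8 bases before it. In Top2a the motif nearest the start is a CHR on the other strand, 23 bases before it, with CCAAT boxes 58, 78, 98 and 149 bases before the start and TTCGAA at 120 and 140 bases. Mki67 has TTTGAA at 98 and 116 bases and CCAAT at 141 bases. Over the windows from 250 bases before to 50 bases after the start, for which the RefSeq promoter table used here matched 41 of the 50 listed members, TTTGAA was found in 31 (75.6%), against 11.4% of the 7952 windows of genes listed for CCNA-GFP and 18.1% of all 27025 windows. CCAAT was found in 28 of 41 (68.3%), against 40.1% of the listed genes and 37.9% of all windows. TTCGAA was found in 4 of 41 (9.76%), against 2.26% and 1.57%. TTTGAA or TTCGAA was found in 33 of 41 (80.5%), against 13.5% of the listed genes and 19.4% of all windows. A match describes these letters only, and the 8 members with neither motif (Nuf2, Kif18a, Nusap1, Cenpe, Melk, Mad2l1, Pttg1 and Birc5) had a median log2 fold change from mitosis to 60 min of 0.88, against 1.04 for the 33 with one. Their medians were -0.52 and -0.47 from 60 to 120 min, and -0.06 and 0.03 at 120 min against asynchronous cells.

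Members were present at low to moderate pre-mRNA levels in all 3 arms. Their mean over the CCNA-GFP libraries ran from 0.611 to 9.75 TPM with a median of 2.97 TPM, against a median of 1.66 TPM for all listed genes, and 3 members lay under 1 TPM. In CTCF-AID the range was 0.928 to 11.3 TPM with a median of 3.21 TPM, against 1.89 TPM for all genes.

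Pre-mRNA of mitotic genes rose after release, and 49 of 50 were higher at 60 min than in mitotic cells in CCNA-GFP. The median log2 fold change of the members was 1.01 at 60 min, which is on the log2(TPM + 1) scale used for all fold changes below, against 0.79 for all genes, of which 88.3% were called higher and 0.515% lower (limma, adjusted p under 0.05). The exception was Cenpa. With every library brought to the same total the members' median rise was not seen, and 36.3% of all genes were higher and 33.2% lower. In the deposited TPM the rise was part of a rise of nearly the whole table, and a count near the background is no result about these genes in particular. Genes were listed by their level in asynchronous or released cells and not in mitosis, and the part of this choice in the shares of all genes was not tested. At 20 min no member was called, none had an unadjusted p under 0.05 and no gene of the table was called (253 of 9911 with an unadjusted p under 0.05). At 30 min no member was called, and 0.303% of all genes were called higher. An unadjusted p under 0.05 was held by 7 of 50 members and by 1135 of 9911 genes. At 40 min 33 members were higher and none lower, against 49.3% of all genes called higher and 0.0404% lower, and the medians were 0.40 for the members and 0.26 for all genes.

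The rise of the members shrank after 60 min, though in the deposited TPM most stayed above mitosis. Their median change from mitosis was 0.60 at 90 min and 0.46 at 120 min in CCNA-GFP, below the 0.73 and 0.68 of all genes, whereas in asynchronous cells it was 0.52 against 0.33. Called higher than in mitosis were 43 members at 90 min (all genes 89.1%), 38 at 120 min (all genes 90.2%) and 47 in asynchronous cells (all genes 70.4%). None was called lower, against 0.948%, 0.656% and 1.97% of all genes. With the same total in every library more members were lower than higher at 120 min (all genes 23.4% lower and 28.7% higher). Without replicate 1, 18 rather than 33 members were called higher at 40 min in CCNA-GFP (all genes 26.4%), and without the replicate number as a block 12 were at 40 min (all genes 23.8%) and 25 rather than 38 at 120 min (all genes 79.3%).

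In CTCF-AID the members also rose and then fell back, and at 60 min without IAA their median was close to that of all genes. Without IAA the members' median change from mitosis was 0.38 40 min after release, 0.71 after 50 min, 0.64 after 60 min, 0.26 after 90 min and 0.17 after 120 min. With IAA it was 0.36, 0.77, 0.72, 0.32 and 0.22 after the same times. The medians of all genes were 0.34, 0.60, 0.63, 0.40 and 0.34 without IAA and 0.30, 0.62, 0.63, 0.41 and 0.35 with IAA. Higher than in mitosis without IAA were 34 members at 40 min, 47 each at 50 and 60 min, 28 at 90 min, 23 after 120 min and 27 in asynchronous cells, against 63.3%, 79.1%, 84.8%, 74.8%, 69.6% and 34.3% of all genes. Lower were 1, 1, 1, 4, 4 and 2 members, against 3.21%, 4.56%, 2.7%, 3.37%, 3.15% and 5.25% of all genes. With IAA 36, 49, 49, 35 and 27 members were higher at the same times and 40 in asynchronous cells, against 58.7%, 78.2%, 82.2%, 73.8%, 68.2% and 40.9% of all genes. Lower were 0, 1, 1, 4, 4 and 1 members, against 3.87%, 5.37%, 4.04%, 4.41%, 4.42% and 5.89% of all genes. At 60 min 47 members were called higher in all 3 arms, against 80.6% of the 9574 genes in both tables. At 20 min no member and no gene was called in either arm. Without replicate 2, 15 members without IAA and 16 with IAA were higher at 120 min (all genes 50.8% and 41.5%) and 26 with IAA in asynchronous cells (all genes 30.9%), and without replicate 3, 17 without IAA in asynchronous cells (all genes 17.3%). At 90 min 12 without IAA and 23 with IAA were higher without replicate 3 (all genes 50.4% and 53.7%). Lower without the block were 0, 2 and 0 members at 60 min, at 90 min and in asynchronous cells without IAA (all genes 1.66%, 1.44% and 1.24%) and 1, 1 and 0 with IAA (all genes 2.62%, 1.96% and 1.75%), and at 40 min without IAA and at 50 min with IAA none was. Without replicate 1 none was lower in either arm at 60 min (all genes 2.45% and 1.95%) or in asynchronous cells (all genes 4.25% and 4.26%), and without replicate 3 none in asynchronous cells (all genes 2.62% and 3.19%). With the same total in every library 21 members without IAA and 13 with IAA were lower at 60 min (all genes 31.1% and 33.2%), and 27 in each arm at 120 min (all genes 25.9% and 28.7%). Without the block, 19 members were higher at 40 min in each arm (all genes 43.5% and 40%), 8 and 11 at 120 min (all genes 42.3% and 43.7%), and 10 and 14 in asynchronous cells (all genes 11.6% and 17.3%). The 2 lines were deposited in separate tables, so their values stand side by side and were not tested against each other.

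**Figure D1:**
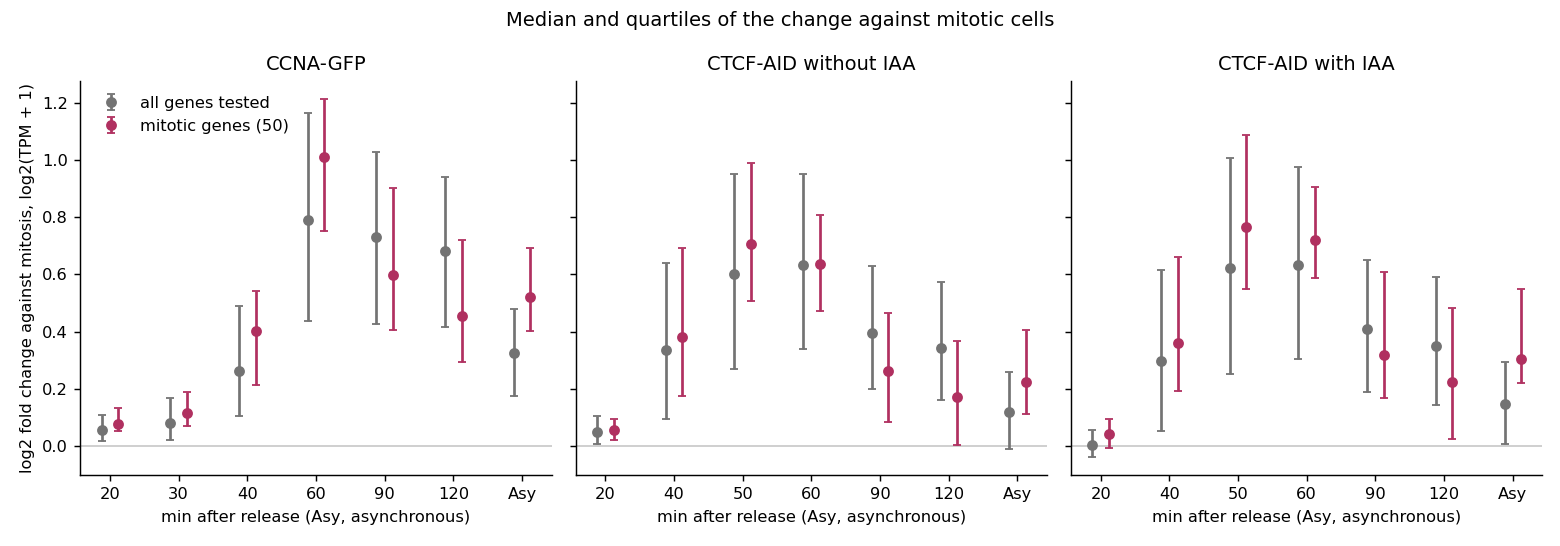
Median log2 fold change against mitotic cells (y axis, log2(TPM + 1) scale) at each release time in min and in asynchronous cells (x axis), for the 50 mitotic genes (red) and all genes tested (grey), with bars from the lower to the upper quartile of genes. In CCNA-GFP the mitotic genes lie above all genes at 60 min (1.01 against 0.79) and below them at 120 min (0.46 against 0.68).

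The counts by role that follow are to be read against all genes of CCNA-GFP, of which 88.3% were higher at 60 min than in mitosis and 28.5% lower at 120 than at 60 min. Against asynchronous cells, 63.4% of all genes were higher after 120 min and 5.86% were lower. At 60 min each role's count is near that background. The largest and smallest rise of a role are those on the log2(TPM + 1) scale, which compresses the changes of low values. Some calls of named genes in CCNA-GFP were lost in other fits (limma, adjusted p over 0.05). The change from 60 to 120 min was not called without replicate 1 for Lin54, Plk1, Cdc25b, Cdca3, Bub3, Mad2l1, Cdc20, Espl1, Kif4, Ckap2, Kif14 and Top2a (adjusted p from 0.0510 to 0.574). Without the replicate block it was not called for those genes other than Plk1 and Cdca3, nor for Spc25 (adjusted p from 0.0646 to 0.202), and it was not called for Cdc25b without replicate 2 or for Lin54 without replicate 3 or with a pseudocount of 0.1 TPM. The difference at 120 min from asynchronous cells was lost for Spc25 in each of these fits (adjusted p from 0.0586 to 0.510). It was also lost for Aurka without replicate 1, for Mad2l1, Espl1, Kif4 and Top2a without replicate 2, for Birc5 and Espl1 without the block, and for Birc5 and Mad2l1 with the same total in every library. The rise of Dlgap5 was lost without the block and without replicate 1, and those of Aurka and Cdc25b with the same total in every library. On that scale the 60 min change from mitosis turned negative for Foxm1 (-0.26), Aurkb (-0.32), Bub3 (-0.65), Cdc20 (-0.17), Cenpa (-1.0), Kif4 (-0.11), Dlgap5 (-0.36), Top2a (-0.26) and Mki67 (-0.19). The difference from asynchronous cells at 120 min turned negative there for Aurkb, Bub3, Cdc20, Spc25, Espl1, Kif22 and Dlgap5. Both lists hold only changes called in the main fit or on that scale, so sign changes called in neither are left out. The rises given below are therefore rises in the deposited TPM.

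Foxm1 and Lin54 are the transcriptional regulators of the group. Foxm1 (chromosome 6, 128362967 to 128376146, plus strand, GRCm38 with Gencode vM21 gene models, as for all positions below), the forkhead factor that drives G2/M genes, stood at 1.01, 0.897 and 1.18 TPM in the 3 mitotic CCNA-GFP libraries, 2.05 and 1.52 TPM at 60 min, 1.72 and 1.60 TPM at 120 min and 1.65, 1.73 and 2.24 TPM in asynchronous cells. The 60 min, 120 min and asynchronous libraries lay above the mitotic ones, and the 120 min libraries lay at or near the asynchronous range. Foxm1 rose by a log2 fold change of 0.51 ± 0.10 (SE, adjusted p = 5.78e-05) at 60 min and its 120 min level was not called different from asynchronous cells (log2 fold change -0.05 ± 0.10 SE, adjusted p = 0.656). Lin54 (chromosome 5, 100441918 to 100500639, minus strand), the CHR-binding subunit of MuvB, had 1.57, 1.73 and 1.91 TPM in mitosis, 6.05 and 4.42 TPM at 60 min, 3.89 and 3.82 TPM at 120 min and 2.06, 2.03 and 3.11 TPM in asynchronous cells. Every 60 and 120 min library lay above every asynchronous one. Lin54 rose by 1.26 ± 0.12 (SE, adjusted p = 6.94e-09) at 60 min, and at 120 min it was still higher than in asynchronous cells, by 0.61 ± 0.12 (SE, adjusted p = 0.000237) in CCNA-GFP, 0.26 ± 0.09 (SE, adjusted p = 0.0166) in CTCF-AID without IAA and 0.22 ± 0.09 (SE, adjusted p = 0.0477) with IAA. Both CTCF-AID calls were lost without the block and without replicate 2, and both turned sign with the same total in every library.

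**Figure D2:**
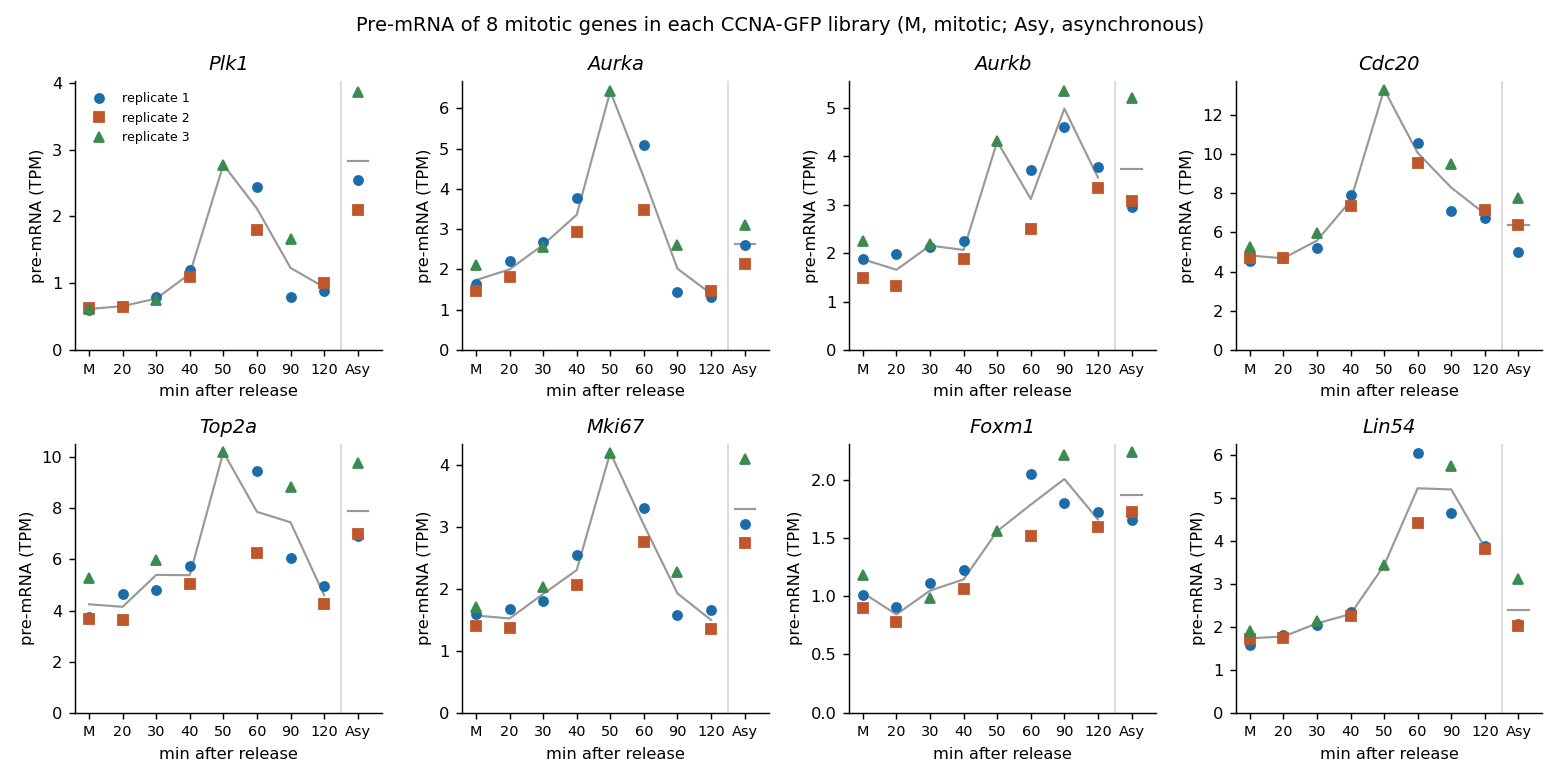
Pre-mRNA level in TPM (y axis, linear) of Plk1, Aurka, Aurkb, Cdc20, Top2a, Mki67, Foxm1 and Lin54 in every CCNA-GFP library by min after release (x axis), with mitotic (M) and asynchronous (Asy) cells. Symbols mark the replicate and the grey line joins the means. Plk1 and Mki67 at 120 min lie below all asynchronous libraries, and Lin54 at 120 min lies above them.

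Among the 7 kinases, phosphatases and regulators of mitotic entry, all were higher at 60 min than in mitosis in CCNA-GFP and 5 were lower at 120 than at 60 min. Plk1 (chromosome 7, 122159439 to 122169873, plus strand), the polo-like kinase needed for spindle assembly and cytokinesis, was at 0.592, 0.631 and 0.619 TPM in mitotic cells, 2.44 and 1.80 TPM at 60 min and 0.881 and 1.00 TPM at 120 min, against 2.55, 2.10 and 3.87 TPM in asynchronous cells. Its 120 min libraries lay above mitosis and below all asynchronous libraries. The rise at 60 min was 1.04 ± 0.13 (SE, adjusted p = 3.2e-07), the change from 60 to 120 min was -0.68 ± 0.14 (SE, adjusted p = 0.000988), and the difference from asynchronous cells at 120 min was -0.86 ± 0.13 (SE, adjusted p = 2.02e-05). In CTCF-AID without IAA Plk1 had 1.25 and 1.01 TPM at 120 min against 2.57, 2.32 and 3.96 TPM in asynchronous cells, a difference of -0.78 ± 0.09 (SE, adjusted p = 1.24e-07), and with IAA the difference was -0.88 ± 0.09 (SE, adjusted p = 1.87e-08). In both CTCF-AID arms Plk1 was already lower than in asynchronous cells at 60 min (-0.43 and -0.42).

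Aurka (chromosome 2, 172356190 to 172370535, minus strand), the Aurora kinase of the spindle poles, was among the members with the largest fall from 60 to 120 min in CCNA-GFP. It was at 1.64, 1.46 and 2.11 TPM in mitosis, 3.78 and 2.94 TPM at 40 min, 6.42 TPM in the single 50 min library and 5.10 and 3.46 TPM at 60 min, and then at 1.44 and 2.60 TPM at 90 min and 1.32 and 1.47 TPM at 120 min, with 2.61, 2.14 and 3.11 TPM in asynchronous cells. Both 120 min libraries lay below all asynchronous libraries, one of them below and one just above the lowest mitotic library. The change from 60 to 120 min was -1.12 ± 0.14 (SE, adjusted p = 8.79e-06). In CTCF-AID the 120 min libraries had 1.16 and 0.978 TPM without IAA and 1.14 and 0.944 TPM with IAA, whereas mitotic cells had 2.61, 1.98 and 3.08 TPM without IAA and 2.66, 1.86 and 2.79 TPM with IAA. Aurka was lower at 120 min than in mitotic cells there, with log2 fold changes of -0.67 ± 0.10 (SE, adjusted p = 1.94e-06) without IAA and -0.65 ± 0.10 (SE, adjusted p = 2.83e-06) with IAA, while in CCNA-GFP the change was -0.08 ± 0.13 (SE, adjusted p = 0.552) and not called.

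Cdca3 (chromosome 6, 124829547 to 124833701, plus strand), also known as Tome-1, an adaptor for the degradation of the CDK1 inhibitory kinase WEE1, rose most in this role. It was at 0.557, 0.365 and 0.619 TPM in mitosis, 3.16 and 2.26 TPM at 60 min, 0.991 and 1.28 TPM at 120 min and 0.899, 0.852 and 1.60 TPM in asynchronous cells. The 60 min libraries lay above all others named and the 120 min libraries overlapped the asynchronous ones. The rise was 1.40 ± 0.12 (SE, adjusted p = 1.48e-09), the largest in the role, and the change to 120 min was -0.79 ± 0.13 (SE, adjusted p = 0.000103). Cdc25b (chromosome 2, 131186949 to 131198497, plus strand), the phosphatase that activates CDK1 at the centrosome, rose least on the log2(TPM + 1) scale, from 0.348, 0.432 and 0.281 TPM to 0.951 and 1.2 TPM at 60 min (log2 fold change 0.62 ± 0.08 SE, adjusted p = 4.28e-07), and was at 0.587 and 0.751 TPM at 120 min. At such low levels this scale compresses a change, and by the ratio of TPM Cdc25b did not rise least.

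The chromosomal passenger complex corrects faulty attachments and guides cytokinesis. Its 4 members all rose at 60 min in CCNA-GFP, 2 were lower at 120 than at 60 min, and none was lower than in asynchronous cells at 120 min. Aurkb (chromosome 11, 69045647 to 69051664, plus strand), its kinase, was not called lower at 120 than at 60 min. Its pre-mRNA was at 1.88, 1.49 and 2.25 TPM in mitosis, 3.73 and 2.51 TPM at 60 min, 4.61 and 5.36 TPM at 90 min, 3.78 and 3.35 TPM at 120 min and 2.96, 3.09 and 5.20 TPM in asynchronous cells. The 120 min libraries lay above mitosis and inside the asynchronous range, and the change from 60 to 120 min was 0.16 ± 0.14 (SE, adjusted p = 0.366). In CTCF-AID Aurkb had 7.12 and 6.09 TPM at 120 min without IAA and 7.80 and 6.16 TPM with IAA, above the asynchronous libraries with 4.26, 3.19 and 5.21 TPM without IAA and 4.74, 3.60 and 5.44 TPM with IAA, by 0.63 ± 0.12 (SE, adjusted p = 0.000154) and 0.59 ± 0.12 (SE, adjusted p = 0.000316). Both of these calls were lost without the replicate block. Birc5 (chromosome 11, 117849251 to 117855743, plus strand), which encodes survivin, had 1.22, 0.631 and 1.66 TPM in mitosis, 5.82 and 3.57 TPM at 60 min, 4.55 and 3.25 TPM at 120 min and 3.05, 2.03 and 3.95 TPM in asynchronous cells. Its rise at 60 min was 1.55 ± 0.11 (SE, adjusted p = 2.97e-10), and within the replicate block it was higher at 120 min than in asynchronous cells (log2 fold change 0.47 ± 0.11 SE, adjusted p = 0.00139), although the libraries of these 2 groups overlap.

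Of the 6 genes of the spindle checkpoint and its target Cdc20, all rose at 60 min in CCNA-GFP, 4 were lower at 120 than at 60 min and 2 were higher at 120 min than in asynchronous cells. Cdc20 (chromosome 4, 118432901 to 118437352, minus strand), the activator of the anaphase-promoting complex whose promoter is printed above, was at 4.53, 4.68 and 5.23 TPM in mitosis, 7.88 and 7.34 TPM at 40 min, 13.3 TPM in the 50 min library, 10.5 and 9.55 TPM at 60 min, 6.75 and 7.13 TPM at 120 min and 5.02, 6.36 and 7.76 TPM in asynchronous cells. All release libraries from 40 min on lay above mitosis, and the 120 min libraries lay inside the asynchronous range. Cdc20 rose by 1.01 ± 0.13 (SE, adjusted p = 2.81e-07) at 60 min and fell to 120 min (log2 fold change -0.47 ± 0.14 SE, adjusted p = 0.00999).

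Mad2l1 (chromosome 6, 66535390 to 66547220, plus strand), which encodes the checkpoint protein MAD2, rose most in this role, from 1.5, 1.16 and 1.35 TPM in mitosis to 5.71 and 4.03 TPM at 60 min (log2 fold change 1.39 ± 0.13 SE, adjusted p = 4.66e-09). At 120 min it was at 2.90 and 2.88 TPM, above all asynchronous libraries (1.74, 1.29 and 2.47 TPM), by 0.55 ± 0.13 (SE, adjusted p = 0.00101). Bub3 (chromosome 7, 131560222 to 131571895, plus strand), the partner that carries BUB1 and BUBR1 to kinetochores, rose least. Its values were 5.02, 4.05 and 5.45 TPM in mitosis and 8.10 and 5.62 TPM at 60 min, with 4.95 and 4.75 TPM at 120 min and 4.41, 4.35 and 6.25 TPM in asynchronous cells. Both 60 min libraries lay above mitosis, the lower of them by little, and the 120 min and asynchronous ones overlapped it. The log2 fold change at 60 min was 0.50 ± 0.13 (SE, adjusted p = 0.00124). In CTCF-AID Bub3 was the one member lower in asynchronous than in mitotic cells in both arms, with 4.35, 3.89 and 5.57 against 6.46, 4.64 and 6.55 TPM without IAA (log2 fold change -0.30 ± 0.09 SE, adjusted p = 0.0155) and 4.60, 4.09 and 5.29 against 6.49, 4.63 and 5.97 TPM with IAA (log2 fold change -0.24 ± 0.09 SE, adjusted p = 0.0415). Neither arm's call held without the block, without replicate 1 or without replicate 3 (limma, adjusted p from 0.0574 to 0.284).

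In the centromere and kinetochore group 5 of 6 listed members rose at 60 min, and the one that did not, Cenpa (chromosome 5, 30666777 to 30674830, plus strand), encodes the histone H3 variant that marks centromeres. Cenpa was at 4.95, 4.82 and 6.41 TPM in mitosis, 4.91 and 5.02 TPM at 40 min, 5.56 and 5.16 TPM at 60 min and 4.26 and 4.82 TPM at 120 min, against 9.05, 9.42 and 14.5 TPM in asynchronous cells. No library of the release lay above the highest mitotic value except the 50 min library (6.42 TPM), and every one lay below all asynchronous libraries. The change at 60 min was 0.12 ± 0.13 (SE, adjusted p = 0.365), and Cenpa was lower than in asynchronous cells, with log2 fold changes of -0.77 ± 0.13 (SE, adjusted p = 1.52e-05) at 60 min and -0.97 ± 0.13 (SE, adjusted p = 3.38e-06) at 120 min.

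In CTCF-AID without IAA Cenpa was at 6.87, 5.86 and 7.56 TPM in mitosis, 4.80 and 4.89 TPM at 50 min, 5.33 and 4.82 TPM at 60 min, 4.24 and 3.72 TPM at 120 min and 10.6, 8.15 and 13.1 TPM in asynchronous cells. Here every library from 40 min on lay below every mitotic library. Cenpa was lower than in mitosis, with log2 fold changes of -0.26 ± 0.08 (SE, adjusted p = 0.00645) at 60 min and -0.55 ± 0.08 (SE, adjusted p = 6.1e-06) at 120 min without IAA, and of -0.30 ± 0.08 (SE, adjusted p = 0.00226) and -0.46 ± 0.08 (SE, adjusted p = 5e-05) with IAA. Without replicate 1 the 60 min change was called in neither arm (limma, adjusted p = 0.219 and 0.157), and without the block it was not called without IAA (adjusted p = 0.0552). Spc25 (chromosome 2, 69193895 to 69206194, minus strand), a subunit of the NDC80 complex that holds microtubules, rose most of the group, from 1.99, 1.03 and 2.08 TPM in mitosis to 6.43 and 4.56 TPM at 60 min in CCNA-GFP (log2 fold change 1.39 ± 0.13 SE, adjusted p = 7.53e-09), and was at 3.49 and 2.69 TPM at 120 min against 2.38, 2.26 and 3.08 TPM in asynchronous cells.

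Both listed genes of sister chromatid separation rose at 60 min and fell by 120 min in CCNA-GFP. Espl1 (chromosome 15, 102296266 to 102324357, plus strand), which encodes separase, the protease that cuts cohesin, was at 1.95, 1.46 and 2.16 TPM in mitosis, 6.32 and 4.49 TPM at 60 min, 3.08 and 3.41 TPM at 120 min and 2.18, 2.26 and 3.52 TPM in asynchronous cells. Pttg1 (chromosome 11, 43420250 to 43426251, minus strand), which encodes securin, the inhibitor of separase, was at 0.592, 0.498 and 0.562 TPM in mitosis, 2.85 and 1.80 TPM at 60 min, 1.36 and 0.688 TPM at 120 min and 1.28, 0.899 and 1.37 TPM in asynchronous cells. Both 60 min libraries of each gene lay above all mitotic and asynchronous ones. The rise was 1.28 ± 0.13 (SE, adjusted p = 2.25e-08) for Espl1 and 1.09 ± 0.11 (SE, adjusted p = 9.1e-09) for Pttg1.

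All 6 spindle and chromosome motors rose at 60 min in CCNA-GFP, and 4 were lower at 120 than at 60 min. Kif22 (chromosome 7, 127027729 to 127042471, minus strand), a chromosome-arm kinesin, rose most, from 1.15, 1.06 and 1.55 TPM in mitosis to 4.72 and 2.93 TPM at 60 min (log2 fold change 1.2 ± 0.13 SE, adjusted p = 3.24e-08). Kif4 (chromosome X, 100625737 to 100727214, plus strand), a chromokinesin that also works at the midzone and is the longest gene of the list, rose least (log2 fold change 0.53 ± 0.09 SE, adjusted p = 1.72e-05), from 0.592, 0.531 and 0.787 TPM to 1.45 and 0.990 TPM. At 120 min Kif4 was at 0.807 and 0.657 TPM against 1.02, 1.13 and 1.63 TPM in asynchronous cells, and both libraries lay below all asynchronous ones (log2 fold change -0.28 ± 0.09 SE, adjusted p = 0.0102). Kif15, a kinesin that can stand in for Kif11 in bipolar spindles and is named here after its values were seen, was the one member higher at 120 than at 60 min in both CTCF-AID arms. It was at 7.62 and 4.21 TPM at 60 min and 8.88 and 7.18 TPM at 120 min without IAA (log2 fold change 0.42 ± 0.11 SE, adjusted p = 0.00307), so the groups overlap. With IAA it was at 6.49 and 4.14 TPM and 7.62 and 7.21 TPM (log2 fold change 0.44 ± 0.11 SE, adjusted p = 0.0023), without overlap. Both calls were lost without the block and without replicate 2 (limma, adjusted p from 0.188 to 0.271). In CCNA-GFP it had 6.96 and 3.75 TPM and 6.39 and 5.44 TPM and was not called (log2 fold change 0.17 ± 0.15 SE, adjusted p = 0.417).

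All 6 spindle assembly proteins rose at 60 min in CCNA-GFP and 5 were lower at 120 than at 60 min, with a median change of -0.84 between these times. Ckap2 (chromosome 8, 22168160 to 22185819, minus strand), a microtubule-nucleating spindle protein, was at 4.15, 3.19 and 4.70 TPM in mitosis, 13.6 and 10.1 TPM at 60 min and 7.63 and 7.51 TPM at 120 min, against 3.51, 4.29 and 5.75 TPM in asynchronous cells. Every 60 and 120 min library lay above every asynchronous library. It rose by 1.47 ± 0.15 (SE, adjusted p = 1.48e-08) at 60 min and was above asynchronous cells at 120 min by 0.76 ± 0.15 (SE, adjusted p = 0.000207), the largest such difference of the members. In CTCF-AID Ckap2 had 9.65 and 9.70 TPM at 120 min against 3.83, 4.48 and 4.49 TPM in asynchronous cells without IAA (log2 fold change 1.07 ± 0.11 SE, adjusted p = 5.78e-08), and asynchronous cells were lower than mitotic ones, which had 5.42, 4.32 and 6.29 TPM (log2 fold change -0.26 ± 0.10 SE, adjusted p = 0.0449). That last call was lost without the block, without replicate 1 and without replicate 3 (limma, adjusted p from 0.174 to 0.367). Dlgap5 (chromosome 14, 47387779 to 47418407, minus strand), which encodes the spindle protein HURP, rose least of these 6, from 0.801, 0.731 and 0.956 TPM to 1.33 and 0.955 TPM at 60 min (log2 fold change 0.29 ± 0.09 SE, adjusted p = 0.00339), with overlapping groups.

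The 9 genes of the central spindle and cytokinesis all rose at 60 min, all were higher at 60 min than in asynchronous cells (all genes 67%), and 7 were lower at 120 than at 60 min. Of all 50 members, 15 were higher at 60 min than in asynchronous CCNA-GFP cells without the block and 16 without replicate 1 (all genes 52.8% and 44.7%). With the same total in every library most members were lower in that comparison. Kif20a, which encodes the kinesin MKLP2 that carries the passenger complex to the midzone, had the largest rise of all 50 members. It was at 1.32, 0.830 and 1.18 TPM in mitosis, 2.42 and 2.34 TPM at 30 min, 4.49 and 2.89 TPM at 40 min, 8.59 TPM in the 50 min library, 7.0 and 4.70 TPM at 60 min, 3.01 and 2.44 TPM at 120 min and 2.41, 2.19 and 3.43 TPM in asynchronous cells. The release libraries lay above all mitotic ones from 30 min on, and the 120 min libraries overlapped asynchronous cells. The rise was 1.79 ± 0.14 (SE, adjusted p = 7.04e-10) and the change to 120 min -0.86 ± 0.15 (SE, adjusted p = 0.000239). Kif14 (chromosome 1, 136466343 to 136531511, plus strand), a midbody kinesin, rose least of the 9, from 0.662, 0.498 and 0.787 TPM to 2.36 and 1.34 TPM (log2 fold change 0.86 ± 0.10 SE, adjusted p = 1.16e-07).

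Top2a and Mki67 act on mitotic chromosomes. Top2a (chromosome 11, 98992943 to 99024189, minus strand), topoisomerase II alpha, which untangles sister DNA, was at 3.76, 3.69 and 5.29 TPM in mitosis, 9.47 and 6.26 TPM at 60 min, 4.95 and 4.25 TPM at 120 min and 6.90, 7.0 and 9.77 TPM in asynchronous cells. Mki67 (chromosome 7, 135689784 to 135716361, minus strand), which encodes the proliferation marker Ki-67 that coats mitotic chromosomes, was at 1.60, 1.40 and 1.72 TPM, 3.31 and 2.76 TPM, 1.65 and 1.35 TPM and 3.05, 2.74 and 4.10 TPM in the same groups. For both genes the 120 min libraries lay inside or at the edge of the mitotic range and below all asynchronous libraries. Top2a rose by 0.89 ± 0.13 (SE, adjusted p = 2.11e-06) at 60 min, and Mki67 by 0.74 ± 0.10 (SE, adjusted p = 1.12e-06). At 120 min both were lower than in asynchronous cells, with a log2 fold change of -0.51 ± 0.13 (SE, adjusted p = 0.00223) for Top2a and -0.68 ± 0.10 (SE, adjusted p = 1.83e-05) for Mki67. In CTCF-AID the difference for Mki67 was -0.29 ± 0.09 (SE, adjusted p = 0.00869) without IAA and -0.40 ± 0.09 (SE, adjusted p = 0.000762) with IAA, and for Top2a -0.28 ± 0.12 (SE, adjusted p = 0.0434) and, not called, -0.24 ± 0.12 (SE, adjusted p = 0.0845). The calls of both genes without IAA were lost without the block and without replicate 2. That of Top2a was also lost without replicate 1 and without replicate 3.

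Between 60 and 120 min pre-mRNA of most mitotic genes fell. In CCNA-GFP 35 of 50 members were lower at 120 than at 60 min and none was higher, against 28.5% of all genes lower and 9.6% higher, and the median change was -0.46 for the members and -0.11 for all genes. In CTCF-AID 43 members were lower without IAA (all genes 53.1%) and 40 with IAA (all genes 50.8%), or 27 and 25 with the same total in every library (all genes 26.5% and 27.2%), Kif15 was higher in both arms (all genes 7.31% and 7.61%, and not called without the block or without replicate 2), and 33 members were called lower in all 3 arms, against 25.8% of the genes in both tables. Within replicates, 41 of 50 members were lower at 120 than at 60 min in both replicates of CCNA-GFP, against 43.8% of all genes. The same was so for 45 members without IAA, against 70.2% of all genes, and for 42 with IAA, against 65.6%. Beside Aurka, the largest changes in CCNA-GFP were those of Nusap1 (-1.03) and Aspm (-1.0), microtubule-binding proteins of the spindle, named after their values were seen. The order of Aurka and Nusap1 depends on the pseudocount, since with 0.1 TPM Nusap1 had -1.81 and Aurka -1.53. Without replicate 1, 14 members were called lower in CCNA-GFP (all genes 6.37%). Without a replicate block 16 were called lower there (all genes 12.1%), 25 in CTCF-AID without IAA (all genes 33.2%) and 26 with IAA (all genes 33.1%).

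The summed pre-mRNA of the 50 members, as a share of all listed TPM of a library, does not depend on how a library was scaled. In CCNA-GFP it was 0.677 ± 0.0507% (SD, n = 3) in mitosis, 0.739% in the 1 library at 50 min, 0.637 ± 0.0344% (SD, n = 2) at 60 min, 0.568 ± 0.0511% (SD, n = 2) at 90 min and 0.490 ± 0.0307% (SD, n = 2) at 120 min, against 0.757 ± 0.0346% (SD, n = 3) in asynchronous cells. The highest 120 min library (0.512%) lay below the lowest library of mitotic (0.620%), 60 min (0.613%) and asynchronous (0.722%) cells. In CTCF-AID the share at 50 min was 0.698 ± 0.0310% (SD, n = 2) without IAA and 0.712 ± 0.0118% (SD, n = 2) with IAA, against 0.654% and 0.633% in mitosis. At 120 min it was 0.526 ± 0.0743% (SD, n = 2) without IAA and 0.545 ± 0.0895% (SD, n = 2) with IAA, against 0.723 ± 0.0272% and 0.745 ± 0.0335% (SD, n = 3 each) in asynchronous cells, again without overlap. Within replicates 1 and 2 it was below mitosis each time, at 0.579 against 0.689% and 0.474 against 0.575% without IAA, and at 0.608 against 0.658% and 0.481 against 0.571% with IAA. Replicate 2 had a lower share than replicate 1 in 18 of 18 groups that hold both, and its part in the results was not tested. In bulk RNA, fewer transcribing cells and less pre-mRNA per cell cannot be told apart.

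**Figure D3:**
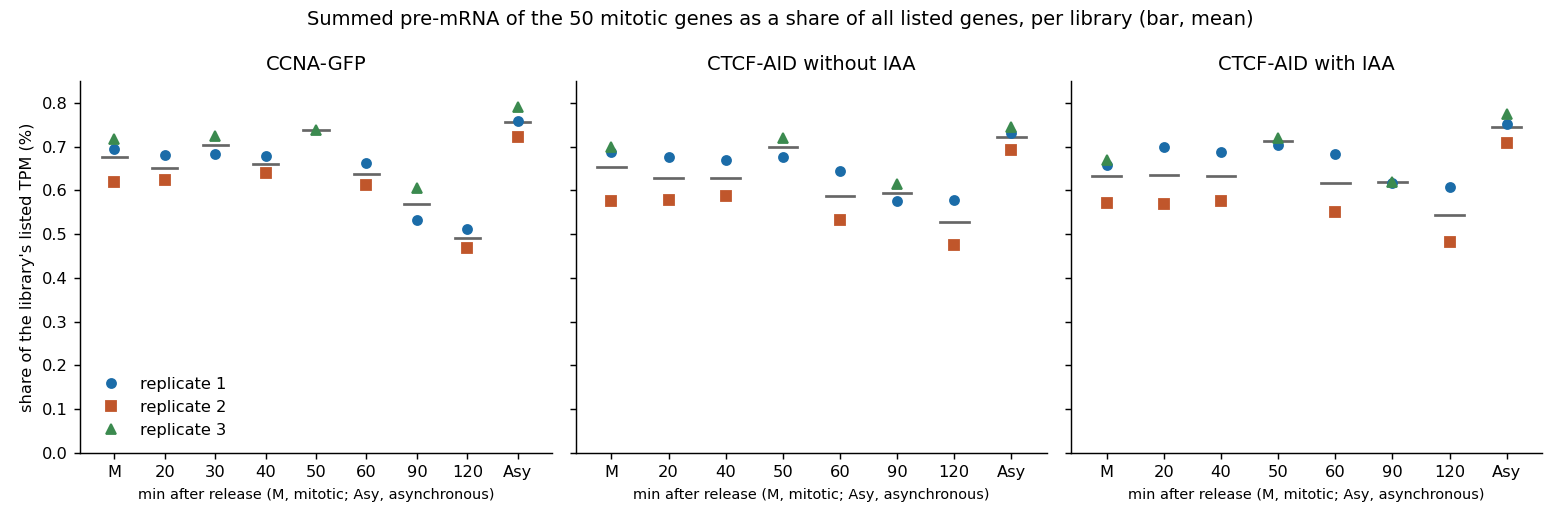
Summed TPM of the 50 mitotic genes as a percentage of all listed TPM (y axis, from 0) in each library, by min after release (x axis) with mitotic (M) and asynchronous (Asy) cells, in the 3 arms. Symbols mark the replicate and bars the group mean. The 120 min libraries of CCNA-GFP (0.468 and 0.512%) are the lowest of that line, and the asynchronous means (0.757, 0.723 and 0.745%) are the highest of each arm.

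Compared with asynchronous cells, most members were higher at 60 min in the deposited TPM and lower with every library scaled to the same total, and at 120 min they lay on both sides in the deposited TPM. At 60 min 35 members were higher in CCNA-GFP and Cenpa was lower, against 67% of all genes higher and 8.6% lower, with medians of 0.43 and 0.47. In CTCF-AID 38 members were higher without IAA (all genes 75.2%) and 36 with IAA (all genes 72.2%), and Cenpa and Plk1 were lower in both arms (all genes 7.06% and 8.24%). With the same total in every library, 8 were higher and 26 lower in CCNA-GFP (median -0.14, all genes 35% and 35.2%), 7 and 30 without IAA (median -0.21, all genes 37.5% and 32.9%) and 7 and 28 with IAA (median -0.19, all genes 36.9% and 33.9%). At 90 min 15 members were higher and 8 lower in CCNA-GFP (all genes 67.2% and 7.73%), 13 and 8 without IAA (all genes 59.3% and 7.32%) and 14 and 8 with IAA (all genes 57% and 8.19%). Without replicate 3 these counts at 90 min were 6 higher and 7 lower, 3 and 9, and 4 and 8, so that the larger count changed side in each arm (all genes 56.5% and 4.09%, 32.3% and 3.91%, 31.8% and 6.29%). In CCNA-GFP 5 were lower without replicate 1 (all genes 5.55%), and without the block 4, 5 and 5 were lower in the 3 arms (all genes 3.64%, 3.11% and 3.45%). With the same total in every library 1, 3 and 4 were higher and 34, 34 and 32 lower at 90 min (all genes 30.3%, 29.7% and 29.4% higher and 27.6%, 26% and 26.4% lower). By mean level 12 members (24%) had reached the asynchronous level by 40 min in CCNA-GFP, 42 (84%) by 60 min and 47 (94%) by 120 min. The shares were 35.1%, 79.3% and 88.6% of the 9083 genes that were not lower in asynchronous than in mitotic cells, as no member was. With the same total in every library 12 had reached it by 60 min, of the 35 members that were not lower there (all genes 46.2% of 5462). The highest mean fell at 50 or 60 min for 32 members (all genes 44.7%), of which 24 at 50 min, where the 1 library is of replicate 3 while those at 60 min are of replicates 1 and 2. With changes from mitosis taken within each replicate, 11 peaked at 50 min and 29 at 60 min, together 40 (all genes 50.3%). In CTCF-AID the highest mean fell at 50 min for 44 members without IAA (all genes 48.1%) and 41 with IAA (all genes 51.2%). Within replicates 27 and 28 peaked at 50 min (all genes 34.0% and 38.0%) and 16 and 15 at 60 min (all genes 34.5% and 30.4%). Without replicate 1, 16 rather than 35 members were called higher at 60 min than in asynchronous CCNA-GFP cells (all genes 44.7%). Without a replicate block 15 were (all genes 52.8%), with 16 in CTCF-AID without IAA (all genes 62.3%) and 19 with IAA (all genes 59.3%).

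At 120 min 9 members were higher and 14 lower than in asynchronous CCNA-GFP cells, with a median of 0.00, against 63.4% of all genes higher, 5.86% lower and a median of 0.35. Without IAA 9 were higher (all genes 51%) and 12 lower (all genes 7.25%), and with IAA 7 were higher (all genes 47.2%) and 15 lower (all genes 8.43%). Called lower in all 3 arms were 11 members (3.9% of the genes in both tables): Plk1 and Aurka, the kinetochore genes Cenpa and Cenpf, the motors Kif18a, Kif2c and Kif4, the spindle assembly factors Tpx2 and Nusap1, the midzone bundler Prc1, and Mki67. Called higher in all 3 arms were 6 members (42.3% of the genes in both tables): Lin54, Birc5, the checkpoint genes Bub1 and Mad2l1, the motor Kif15, and Ckap2. By mean level, 32 members were below asynchronous cells at 120 min in CCNA-GFP, against 19.8% of all genes. The asynchronous mean includes replicate 3, which has no 120 min library, and with changes from mitosis taken within each replicate 26 were below (all genes 16.5%). With the same total in every library most members were called lower than in asynchronous cells in all 3 arms (all genes 25%, 27.7% and 29.2%). In CCNA-GFP 9 were called lower without replicate 1 (all genes 2.6%), and 5 and 4 were called higher without replicate 1 and replicate 2 (all genes 46% and 45.8%). In CTCF-AID without IAA, 7 were called lower and 5 higher without replicate 2 (all genes 6.79% and 27.3%), and with IAA 13 and 4 were called higher without replicate 1 and replicate 2 (all genes 57.6% and 21.8%). Without a replicate block 3 were called higher in CCNA-GFP (all genes 35.6%) and 2 in each CTCF-AID arm (all genes 23.9% and 22.4%). In CTCF-AID the calls of Lin54, Birc5, Bub1, Mad2l1, Aurkb and Kif2c were then lost in both arms, and those of Kif4, Top2a and Mki67 without IAA. Without replicate 2 they were lost in both arms for Lin54 and Birc5, for Bub1 with IAA, and for Mad2l1, Kif18a, Kif2c, Kif4, Top2a and Mki67 without IAA. Without replicate 1 the same was so for Kif2c with IAA and Top2a without IAA, and without replicate 3 for Lin54 with IAA and Mad2l1, Kif2c and Top2a without IAA. With the same total in every library Bub1 was not called in either arm, Birc5 not without IAA and Mad2l1 not with IAA, and the sign turned for Lin54 in both arms and for Mad2l1 without IAA.

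Against mitosis rather than asynchronous cells, 4 members were lower at both 90 and 120 min in both CTCF-AID arms, which were Aurka, Bub3, Cenpa and Cenpf, a kinetochore and nuclear envelope protein (3.15% of all genes lower at 120 min without IAA and 4.42% with IAA). The changes of Cenpf at 120 min were -0.49 ± 0.09 (SE, adjusted p = 2.56e-05) without IAA and -0.42 ± 0.09 (SE, adjusted p = 0.00014) with IAA. Without the block, Bub3 and Cenpf were not called at 90 min in either arm, Cenpa not at 90 min with IAA and Bub3 not at 120 min with IAA, so that only Aurka held at both times in both arms. Bub3 with IAA was also not called without replicate 1 at either time or without replicate 3 at 90 min. In CCNA-GFP none of the 4 was called lower than in mitosis at these times, with 120 min values of -0.08 for Aurka, 0.09 for Bub3, -0.08 for Cenpa and -0.12 for Cenpf. Whether the lines differ was not tested.

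**Figure D4:**
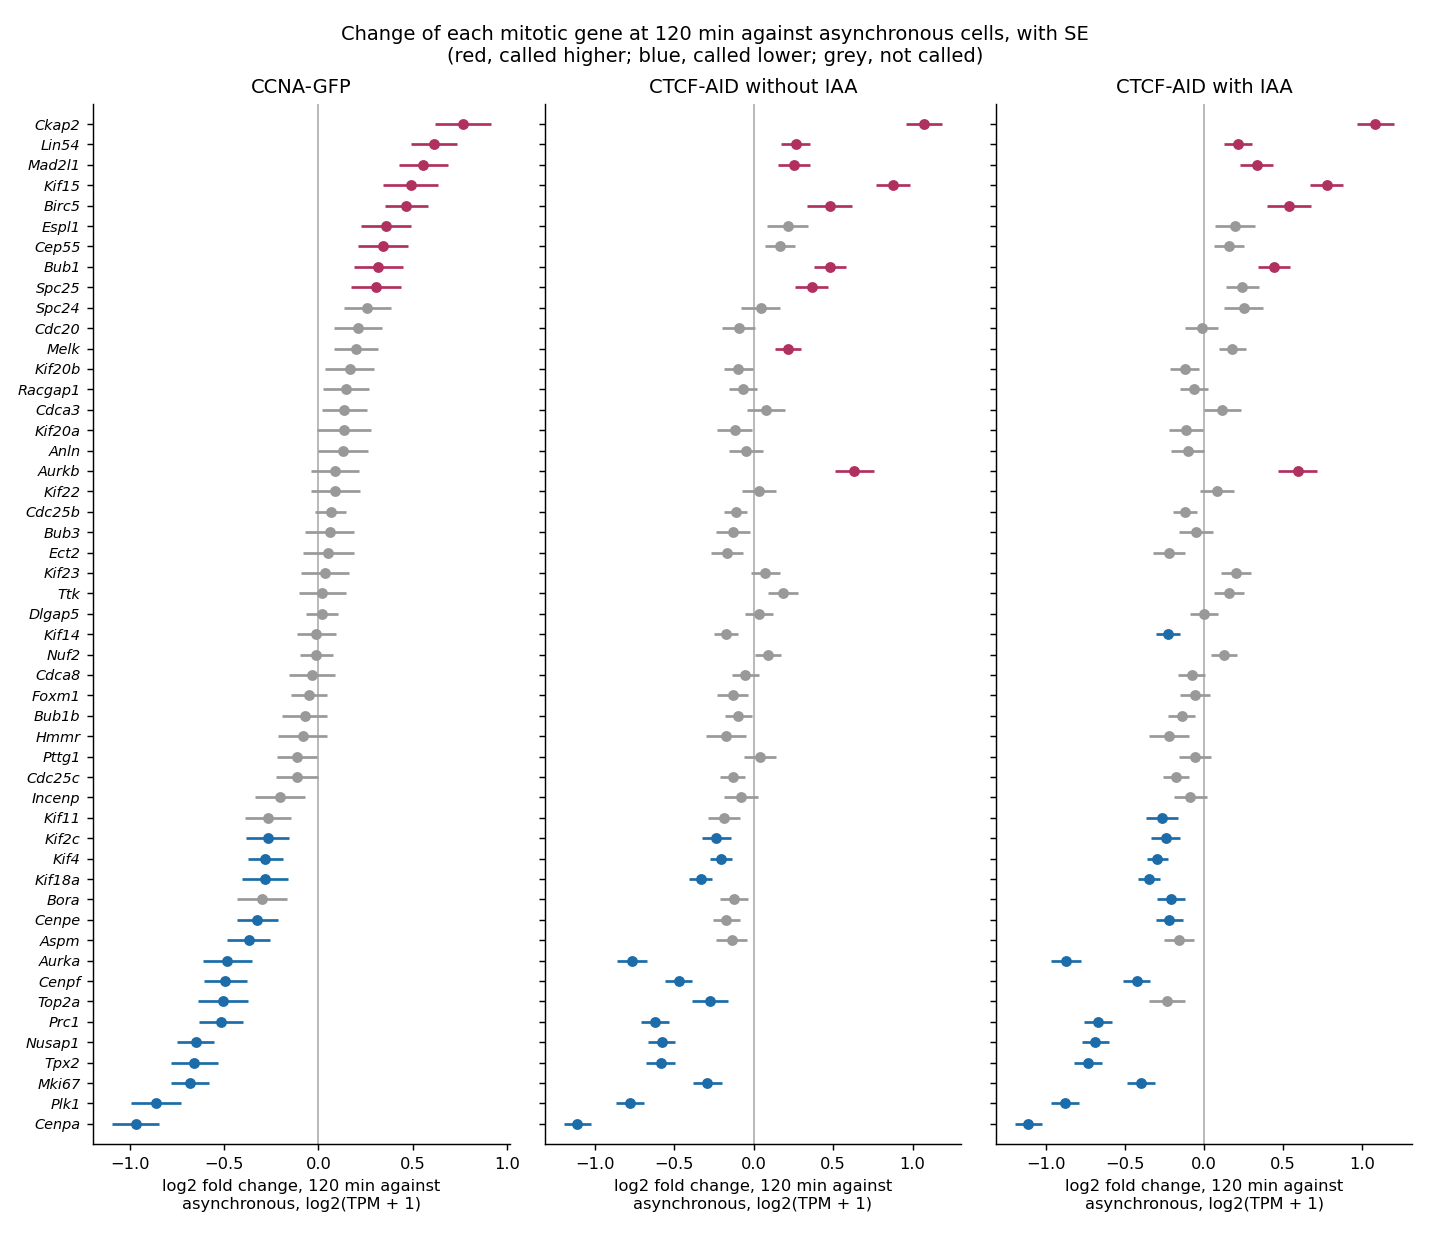
Log2 fold change of each mitotic gene at 120 min against asynchronous cells (x axis, log2(TPM + 1) scale, bars are SE) in the 3 arms, with genes on the y axis in the order of CCNA-GFP. Red marks genes called higher, blue lower and grey neither (limma, adjusted p under 0.05). Cenpa, Plk1 and Mki67 lie at the lower end in CCNA-GFP and Ckap2 and Lin54 at the upper end.

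The scale of the deposited values bears on these directions. When every library was brought to the same total, the median of all genes at 60 min against mitosis moved from 0.79 to 0.02, and that of the members from 1.01 to 0.01 (18 members higher and 18 lower, all genes 36.3% and 33.2%). At 120 min the members' median became -0.24 against mitosis, with 2 higher and 29 lower (all genes 28.7% and 23.4%), and -0.36 against asynchronous cells, with 2 higher and 36 lower (all genes 26.7% and 25%). The medians of all genes were 0.03 and 0.02. The change from 60 to 120 min kept its direction in CCNA-GFP, with 35 members lower, 2 higher and a median of -0.27, against 21.7% of all genes lower, 24.2% higher and a median of 0.02. In CTCF-AID it had medians of -0.19 in both arms, with 27 members lower and 4 higher without IAA and 25 and 5 with IAA (all genes 26.5% and 25.6%, 27.2% and 26.6%). The members' median rise at 60 min in CCNA-GFP was thus seen in the deposited TPM only, while the members' decline from 60 to 120 min was seen on both scales.

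The shorter members had the larger changes at 40 min. The members span from 4.155 kb (Cdca3) to 101 kb (Kif4), with a median of 28.2 kb. Over the 50 members, Spearman's rho between gene length and the log2 fold change at 40 min was -0.52 in CCNA-GFP, -0.61 in CTCF-AID without IAA and -0.60 with IAA, and at 60 min -0.19, -0.34 and -0.34. These are correlations across genes measured in the same libraries, given as a description. Over all listed genes with a length the 40 min values were -0.54, -0.59 and -0.63. The shorter members had a median change at 40 min of 0.51 and the longer ones of 0.29 in CCNA-GFP. With the fall from 60 to 120 min, length had a rho of 0.04, -0.08 and -0.15.

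Genes of the same pathways outside the list also rose by 60 min in most cases, near the share of all genes (88.3%). Of 31 other listed kinetochore and centromere genes (among them Zwint, Hjurp and Cenpt), 29 were higher at 60 min than in mitosis in CCNA-GFP and 10 were lower and 2 higher at 120 than at 60 min, with a median of -0.20. Of 25 other spindle and cytokinesis genes (among them Gtse1, Psrc1 and Kifc1), 24 were higher at 60 min, and 16 were lower and 1 higher at 120 than at 60 min, with a median of -0.42. The shares of all genes were 28.5% lower and 9.6% higher. At 120 min against asynchronous cells, where 63.4% of all genes were higher and 5.86% lower, 16 of the 31 were higher and 3 lower (median 0.30), and 10 of the 25 were higher and 2 lower (median 0.25). Of 12 genes of the MuvB complex with its pocket protein, E2F and B-Myb partners, and of NF-Y (among them Mybl2, Rbbp4 and Lin52), 11 rose at 60 min, and 8 were higher and 1 lower at 120 min than in asynchronous cells (median 0.50). As a comparison from another phase, 31 of 32 genes of the G1/S transition (among them Mcm7, Pcna and Orc1) rose at 60 min with a median of 1.64, and at 120 min 28 were higher than in asynchronous cells and none lower, with a median of 0.79, against 0.00 for the mitotic members. In CTCF-AID without IAA 29 of these 32 were higher at 120 min than in asynchronous cells (all genes 51%), with a median of 0.61.

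IAA, which degrades CTCF in these cells, left no called change in mitotic genes. At none of the 8 stages was any of the 50 members called between CTCF-AID cells with and without IAA (limma, adjusted p under 0.1 and an absolute log2 fold change over 0.2). None had an unadjusted p under 0.05 in any of the 400 tests. Of all 10237 genes, from 23 in mitotic cells to 286 in asynchronous cells had one at a stage. This fit has no replicate block, so the spread between replicates stays in its error and raises its p-values. Over all genes, none was called in mitotic cells or at 20 and 40 min. Called higher and lower were 0.0879% and 0.195% at 50 min, 0.0586% and 0.166% at 60 min, 0.176% and 0.557% at 90 min, 0.127% and 0.459% at 120 min, and 0.313% and 0.694% in asynchronous cells. The members' median difference ran from -0.07 at 20 min to 0.05 at 60 min, where the medians of all genes were -0.06 and -0.02. Single values of members ran from -0.22 (Mad2l1 at 20 min) to 0.26 (Cdca3 at 60 min). With a replicate block no member was called either, against at most 0.899% of all genes higher and 1.53% lower, both in asynchronous cells, and 1 of 450 tests, the interaction included, had an unadjusted p under 0.05. No member was called for a difference between the mean IAA effect over 20 to 60 min and that in asynchronous cells at an adjusted p of 0.1 (0.0195% of all genes higher, none lower).

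For single members the levels with and without IAA lay close together. Plk1 was at 1.91 and 1.53 TPM without IAA and 1.95 and 1.75 TPM with IAA at 60 min, a difference of 0.07 with a 95% interval from -0.27 to 0.41. Cdc20 was at 7.33 and 8.35 TPM and 7.33 and 7.39 TPM, a difference of -0.08 with an interval from -0.41 to 0.26. Cdca3, with the largest difference, was at 2.16 and 1.73 TPM and 2.79 and 2.24 TPM, with an interval from -0.12 to 0.63. The median half-width of these intervals over the members was 0.42 at release times and 0.35 in mitotic and asynchronous cells, and the missing calls do not show that the arms are alike. These intervals leave in the spread between replicates. With the replicate block the median half-width was 0.21 at release times and 0.17 in mitotic and asynchronous cells. The intervals then ran from -0.13 to 0.26 for Plk1, from -0.31 to 0.15 for Cdc20 and from -0.01 to 0.52 for Cdca3, which was higher with IAA in both replicates.

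**Figure D5:**
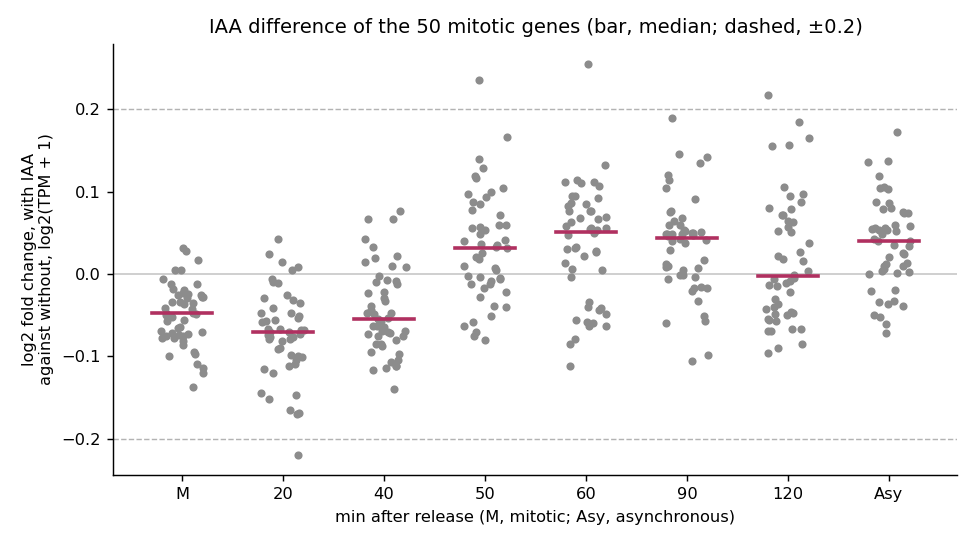
Log2 fold change of CTCF-AID cells with IAA against without (y axis, log2(TPM + 1) scale) for each of the 50 mitotic genes (grey points) in mitotic (M) cells, by min after release (x axis) and in asynchronous (Asy) cells. Bars are medians and dashed lines the threshold of 0.2. The medians lie between -0.07 and 0.05, and no gene was called at any stage.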

How the data were processed

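The 55 libraries are ribo-depleted, stranded, paired-end RNA-seq of 2 mouse ES cell lines. The authors aligned reads to mm10 with STAR, quantified them with RSEM on Gencode models to which an unspliced isoform was added per gene, and deposited that isoform's TPM for expressed genes (means over 0.5 TPM). Versions of STAR and RSEM are not given in the sources used here. The listed rows are unspliced isoforms only, and the sources used here do not say whether a scale beyond TPM was applied, so what sets the differences in listed totals between libraries was not tested. How reads shared by overlapping genes were divided is not stated.

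The 52 members, their 10 roles and the other lists were chosen with earlier results of these data known. Columns were mapped by header, and the garbled headers of asynchronous CTCF-AID libraries by the matching supplementary column names. Fits used limma 3.58.1 under R 4.3.3 (linear model, trended empirical Bayes) on log2(TPM + 1) over all genes of a table, with Benjamini-Hochberg adjustment per comparison. Stages were compared with replicate number as a block (adjusted p under 0.05), IAA arms without it (adjusted p under 0.1, absolute log2 fold change over 0.2). Libraries of one replicate number deviated together from their stage means in 41 of 41 CCNA-GFP pairs (r from 0.13 to 0.80) and 182 of 182 CTCF-AID pairs (r from 0.11 to 0.88), so the numbers pair libraries, as a hint from the data. The study calls its replicates independent, and p-values measure the spread between them. The 50 min CCNA-GFP library entered the fit without a test. On simulated data for 60 min against mitosis in CCNA-GFP, with 200 of 9911 genes changed, 86% of genes with a log2 change of 1 and 19.5% with 0.5 were called. The simulated libraries varied independently, without the shared deviations of a replicate number, while 88.3% of genes were called higher in the data. These shares therefore do not give the power of the fits above.

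Members named are Plk1, Aurka, Aurkb, Cdc20, Top2a, Mki67, Foxm1 and Lin54, the largest and smallest change of each role at 60 min against mitosis in CCNA-GFP, and members called lower than in mitosis in CCNA-GFP, lower in asynchronous than in mitotic cells, or different with IAA. Alternatives were a pseudocount of 0.1 TPM, one total for every library, a minimum mean of 1 TPM, the other choice of block, each replicate left out, no trend, and fold changes taken within replicates. Positions came from Gencode vM21 (all 50 listed members matched) and promoters from RefSeq.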

Additional observations from a re-analysis of the deposited data

Results flagged for a closer look

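All 23 named members were searched for opposite moves in the 2 lines against mitosis at 60 min, at 120 min and in asynchronous cells. The search also covered 120 min against 60 min and against asynchronous cells. For 6 comparisons, both release libraries of CCNA-GFP lay above the reference library of the same replicate number and both of CTCF-AID without IAA lay below theirs. The lines were deposited in separate tables with 2 libraries each at these times, and the difference between them was not tested. The values that follow are fitted log2 fold changes, which can lie outside the differences within replicates. At 60 min against mitosis, the log2 fold change of Cenpa was 0.12 in CCNA-GFP and -0.26 in CTCF-AID without IAA. At 120 min against mitosis, Cdc25b had 0.30 in CCNA-GFP and -0.0067 in CTCF-AID, and Kif4 had 0.18 and -0.00018. At 120 min against asynchronous cells, Cdc25b had 0.06 in CCNA-GFP and -0.11 in CTCF-AID, Bub3 had 0.06 and -0.13, and Kif20a had 0.13 and -0.12.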

How the results depend on the processing

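Of the recomputed counts of members, 283 stayed within 1.5 times of the reported count and 75 did not. Those that stayed include every count under a pseudocount of 0.1 TPM, under the minimum of 1 TPM and without a trend, and all IAA counts, which stayed at 0. For the 23 named genes in 3 CCNA-GFP comparisons, 16 fold changes called in the main or the other fit turned direction. A further 44 lost and 6 gained a call. The other 480 were called with the same sign in both fits or called in neither, where a turned sign was not counted. Of the 44, 15 each were lost without the block and without replicate 1, and 6 without replicate 2. In CTCF-AID these genes had 357 calls over the stage comparisons of both arms, of which 111 were lost without the block, 34, 39 and 51 without replicates 1, 2 and 3, and 79 with the same total, where 77 more turned. Without replicate 1 the change of Dlgap5 from 60 to 120 min with IAA turned from -0.23 to 0.01, not called. The cause was not tested.

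With every library scaled to the same total, 16 changes called in the main fit or in this one turned in CCNA-GFP. At 60 min against mitosis they were Aurkb -0.32, Bub3 -0.65, Cdc20 -0.17, Cenpa -1.0, Dlgap5 -0.36, Foxm1 -0.26, Kif4 -0.11, Mki67 -0.19 and Top2a -0.26. At 120 min against asynchronous cells they were Aurkb -0.32, Bub3 -0.39, Cdc20 -0.27, Dlgap5 -0.24, Espl1 -0.051, Kif22 -0.29 and Spc25 -0.10. Members higher than in mitosis then numbered 12, 18 and 2 in CCNA-GFP at 40, 60 and 120 min and 30 in asynchronous cells (all genes 23.7%, 36.3%, 28.7% and 24.7%). Without IAA they numbered 14, 12 and 8 at 40, 60 and 120 min (all genes 33.3%, 39.4% and 32%), and with IAA 16, 17 and 9 and, in asynchronous cells, 26 (all genes 33.2%, 40.6%, 33.5% and 29.7%). At 60 min against asynchronous cells the direction turned, with 8, 7 and 7 members higher and 26, 30 and 28 lower in CCNA-GFP, without IAA and with IAA. At 90 min 1, 3 and 4 were higher and 34, 34 and 32 lower than in asynchronous cells, and 5, 9 and 10 were higher than in mitosis (all genes 31.8%, 34.5% and 36.7%). At 120 min 2, 3 and 4 were higher (all genes 26.7%, 26.9% and 26.2%) and 36, 36 and 35 lower (all genes 25%, 27.7% and 29.2%). Lower at 120 than at 60 min were 27 without IAA and 25 with IAA (all genes 26.5% and 27.2%). In CCNA-GFP 12 of 50 members had reached the asynchronous mean by 60 min (all genes 25.5%), where 15 had an asynchronous mean below the mitotic one and could not, and 19 had their highest mean at 50 or 60 min (all genes 29.9%).

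With no replicate block, which ignores the pairing of the libraries, members higher than in mitosis numbered 12 and 25 in CCNA-GFP at 40 and 120 min. Without IAA they numbered 19, 8 and, in asynchronous cells, 10, and with IAA 19, 11 and 14. Higher than in asynchronous cells were 15, 16 and 19 at 60 min and 3, 2 and 2 at 120 min, and lower 4, 5 and 5 at 90 min, in the same order of arms. Lower at 120 than at 60 min were 16, 25 and 26. For IAA, where the main comparison had no block, the replicate block changed no call.

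Leaving out replicates in turn gave, in CCNA-GFP, 18 to 28 members higher at 40 min than in mitosis, 16 to 37 higher at 60 min than in asynchronous cells, 4 to 8 higher and 9 to 12 lower at 120 min than in asynchronous cells, and 14 to 37 lower at 120 than at 60 min. Without IAA it gave 15 to 23 higher at 120 min and 17 to 30 higher in asynchronous cells than in mitosis, and 5 to 10 higher and 7 to 12 lower at 120 min than in asynchronous cells. With IAA it gave 16 to 33, 26 to 41 and 4 to 13 for the higher counts. At 90 min against asynchronous cells it gave 6 to 14 higher and 5 to 7 lower in CCNA-GFP, 3 to 18 higher without IAA and 4 to 18 with IAA, and against mitosis 12 to 37 higher without IAA and 23 to 38 with IAA. Where a stage was left with 1 library, that library was assumed to vary like the other groups. Depth is unknown, so the floor of low values cannot be given.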
